A study of Mus musculus with 23 samples.

Results

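Neurites grown by mouse hippocampal neurons into the perfusion channel of microfluidic chambers were compared after exposure to potassium chloride and without it. The chambers hold cell bodies apart from the far ends of their neurites, and only RNA taken from the channel at those ends was sequenced. The comparison takes the 3 KCl libraries (KCL1, KCL1a and KCL4) and the 5 unstimulated libraries whose columns bear a number after the letter C (C1, C2, C3, C9 and C11), that is 8 of the 23 samples of the series, and the 22018 gene rows of the total RNA table of 48709 rows that the table of noncoding RNAs does not hold. Of these rows 21626 are protein coding in GENCODE vM21, and they are called mRNAs here. C2, C3 and C9 match sample titles that are a bare number. C1 and C11 each match a pair of titles with that number and a suffix, both titles being control chambers, and which of the pair each column holds could not be settled. The unstimulated libraries Ctrl3, Ctrl4 and sc3 were left out, and numbered control chambers with no column in the total RNA table were not analysed here.

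All 8 libraries came from primary hippocampal cultures of CD1 mice, an outbred strain, prepared at embryonic day 17 and kept for 14 days in vitro. The KCl chambers received medium with a final concentration of 50 mM KCl for 2 h before the RNA was isolated, and the control chambers were not stimulated. KCl reached the whole chamber, cell bodies included. The authors state that total RNA from chambers was always pooled from 2 samples, and that libraries were made with a Pico Input kit. The sources used here do not say which chambers shared a culture or a preparation, so the spread between libraries may be partly technical.

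Raised extracellular potassium depolarises neurons and opens voltage-gated calcium channels. Calcium then acts through calcium/calmodulin-dependent kinases and MAP kinases on the transcription factors CREB and SRF, which switch on immediate early genes without new protein synthesis. Many of these genes encode transcription factors, such as Fos and the orphan nuclear receptors of the Nr4a family, and others encode proteins that act at synapses. Neurites also hold mRNAs for local protein synthesis, and mRNAs of ribosomal proteins are among those commonly found in axons and dendrites.

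Promoters of 4 genes are printed because 3 of them belong to mRNAs that were higher with KCl and the Nr4a3 promoter belongs to the remaining member of that receptor family. Capitals mark TGACG, the core of the cAMP response element that CREB binds, in either orientation, so that CGTCA is the same core on the opposite strand. The stretches are RefSeq sequence of GRCm38.p6, read 5′ to 3′ on the strand of the gene and counted back from the annotated start.
Fos: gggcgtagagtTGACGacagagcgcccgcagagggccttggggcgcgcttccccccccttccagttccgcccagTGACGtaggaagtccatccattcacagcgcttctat
Nr4a1: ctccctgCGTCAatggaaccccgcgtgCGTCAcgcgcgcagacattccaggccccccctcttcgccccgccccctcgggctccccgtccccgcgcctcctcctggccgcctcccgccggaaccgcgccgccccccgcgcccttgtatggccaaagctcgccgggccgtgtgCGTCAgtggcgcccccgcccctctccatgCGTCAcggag
Nr4a2: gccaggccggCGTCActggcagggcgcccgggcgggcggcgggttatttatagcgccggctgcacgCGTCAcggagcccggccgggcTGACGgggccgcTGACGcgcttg
Nr4a3: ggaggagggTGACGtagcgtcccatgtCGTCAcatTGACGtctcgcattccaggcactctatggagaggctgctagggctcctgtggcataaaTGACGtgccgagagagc
The Fos stretch lies on the plus strand at chr12:85473750-85473859, which is 140 to 31 bases before the start, and holds 2 cores. The Nr4a1 stretch is chr15:101266606-101266815 on the plus strand, 240 to 31 bases before a start inside the gene, with 4 cores. The Nr4a2 stretch is chr2:57124104-57124213 on the minus strand, 210 to 101 bases before the start, with 4 cores. The Nr4a3 stretch is chr4:48045065-48045174 on the plus strand, with 4 cores. It lies 240 to 131 bases before a start inside the gene, and its end also lies inside the gene.

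The core was present in 20.8% of all 32851 promoter windows of 300 bases in the RefSeq table and in 26.5% of the 16969 windows of tested mRNAs. It was present in 25 of the 33 windows (75.8%) that matched 23 of the 30 listed immediate early transcription factors, and in 33 of 72 windows (45.8%) of 61 matched ribosomal protein genes. The full element TGACGTCA, which contains the core, was in 1.79% of all windows, the AP-1 site TGANTCA in 7.81% and the CArG box, the SRF element, in 1.63%. None of these longer motifs was in the 4 promoter windows above. Sequence outside the windows was not searched, so an element further upstream would be missed. Of the 33 immediate early windows, 1 (3.03%) held the full element, 1 (3.03%) the AP-1 site and 5 (15.2%) the CArG box. Of the 72 ribosomal windows, 6 (8.33%) held the full element, 2 (2.78%) the AP-1 site and 1 (1.39%) the CArG box. Windows of Tiparp, Jun and Klf6 held no core, that of Fosb held 1, and that of Npas4 held 2, while Camk4 was not matched. These matches are letters in a window and were not tested as binding sites.

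The libraries held 1264311 (C1), 4046058 (C2), 2469281 (C3), 1984767 (C9), 4800303 (C11), 2842061 (KCL1), 2632490 (KCL1a) and 80883504 (KCL4) counts. KCL4 was thus far deeper than every other library. Between 68.3% and 81.0% of the counts fell on mRNAs, and 15804 to 20860 mRNAs had at least 1 count. KCL1a stood apart, with a median correlation of 0.62 with the other libraries, which lay between 0.73 and 0.81. Genes of olfactory, vomeronasal and taste receptors, which have no known role in hippocampal neurites, took 0.0541% (KCL4) to 0.738% (C3) of the counts, and KCL1a held 0.424%. Of 10 library values compared, none reached p under 0.05 in an exact two-sided permutation test of means. The p lay between 0.214 and 0.893, where the smallest p that 3 against 5 libraries can give is 0.0357. This does not show that the groups were alike, since the mean total count was 28786000 with KCl and 2912940 in controls. KCL1 and KCL1a, whose titles share a number, differed by a mean chi-square of 37.6 per gene over 15491 genes, that is beyond counting noise, and were kept as separate samples. This does not show that they came from separate cultures, which the labels do not say, and with both summed to 1 sample 45 mRNAs were higher (0.23% of 19552 tested) and 4 lower.

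Markers of neurons were present in every library. The 12 neuron markers took 0.266% to 0.570% of the counts with KCl and 0.224% to 0.547% in controls. Astrocyte markers took 0.304% to 0.578% with KCl and 0.275% to 0.575% in controls, so the channel RNA held glial transcripts in both groups. Gfap, the astrocyte intermediate filament, was at 544, 503, 182, 438 and 543 CPM (counts scaled to a common library size) in C1, C2, C3, C9 and C11 and at 789, 156 and 474 in KCL1, KCL1a and KCL4, with overlapping groups. Microglia markers took at most 0.0261% of any library, and P2ry12, a microglial receptor, was at 0 in C1, C2, C11, KCL1 and KCL1a. In such bulk samples, fewer cells of a type and less RNA per cell cannot be told apart.

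The mRNAs of Fos, Nr4a1 and Nr4a2 (immediate early transcription factors), Camk4 (a calcium/calmodulin-dependent kinase) and Tiparp (an ADP-ribosyltransferase) were higher in the KCl libraries. The groups also differed in Y-linked RNA, as given below, so KCl and the sex of the cultured embryos cannot be told apart. These 5 called mRNAs, of 17459 tested (0.0286%), passed an adjusted p of 0.05 with a log2 fold change over 1, and 0 mRNAs (0%) passed in the lower direction. The test was edgeR's quasi-likelihood test with Benjamini-Hochberg adjustment over all 23508 rows tested. Without adjustment, 632 mRNAs were higher and 395 lower at p under 0.05 in the same test. If no mRNA differed, a fraction of about 0.05 of the 17459 would be expected under this limit, both directions together. These counts are thus not read as changes. Levels are given as CPM after TMM scaling, and fold changes as log2 with their standard error.

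Fos, the founding member of the AP-1 family, lies on chr12:85473890-85477273. It was at 42.4, 14.6, 22.0, 26.3 and 47.3 CPM in C1, C2, C3, C9 and C11 and at 319, 100 and 391 CPM in KCL1, KCL1a and KCL4. All KCl libraries lay above all controls, KCL1a least far. The log2 fold change was 3.15 ± 0.50 (SE), an 8.90-fold difference with an adjusted p of 0.00496 in edgeR.

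Camk4 encodes calcium/calmodulin-dependent kinase IV, a mostly nuclear kinase that phosphorylates CREB, and spans chr18:32934931-33191228. Its level was 28.8, 30.7, 42.0, 53.1 and 45.9 CPM in the controls, in the same order, and 221, 206 and 761 CPM with KCl. The groups were well apart and KCL4 was the highest library. Camk4 had the largest log2 fold change of the 5 called mRNAs, 3.30 ± 0.50 (SE), with an adjusted p of 0.00366 in edgeR.

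Nr4a1 (Nur77), on chr15:101254269-101274795, was at 22.1, 29.9, 27.8, 17.1 and 18.6 CPM in controls and at 142, 72.8 and 162 CPM with KCl. Nr4a2 (Nurr1), on chr2:57106830-57124003, was at 33.1, 25.0, 11.6, 14.9 and 14.8 CPM and at 96.2, 71.7 and 150 CPM. For both receptors the groups did not overlap and KCL1a was the lowest KCl library. Both had a log2 fold change of 2.44, with standard errors of 0.44 and 0.46 and adjusted p of 0.0228 and 0.0336 in edgeR. Tiparp, a target of the aryl hydrocarbon receptor on chr3:65528410-65555518, was at 18.7, 24.0, 26.1, 11.4 and 9.10 CPM in controls and at 63.4, 83.3 and 171 CPM with KCl. Here KCL1a was not the lowest KCl library. The log2 fold change was 2.57 ± 0.47 (SE) with an adjusted p of 0.0277 in edgeR.

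The calls depended on single libraries more than the fold changes did. Without C1, C2 or C11 none of the 5 mRNAs passed, and without C3 or C9 only Camk4 did, while the log2 fold change without any 1 control stayed between 3.00 and 3.41 for Fos, 3.25 and 3.40 for Camk4 and 2.32 and 2.57 for Nr4a1. Without KCL4, Fos and Camk4 passed, and Nr4a1, Nr4a2 and Tiparp did not (log2 fold changes 2.22, 2.10 and 2.02, adjusted p 0.175, 0.503 and 0.832 in edgeR). Without KCL1a, which stood apart, 91 mRNAs were higher (0.484% of 18797 tested) and 13 lower, all 5 among the former.

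**Figure D1:**
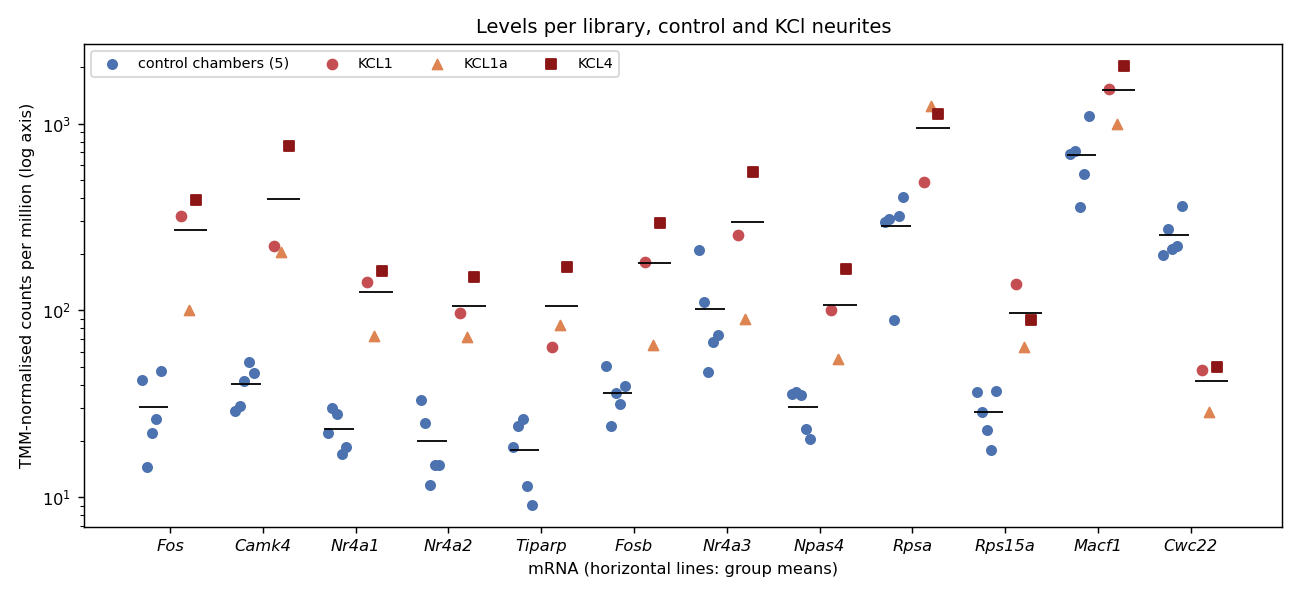
TMM-normalised CPM on a log axis for 12 mRNAs in each of 5 control libraries (blue) and 3 KCl libraries (red shades), with group means as lines. Fos, Camk4, Nr4a1, Nr4a2 and Tiparp with KCl lie above all controls, Nr4a3 and Macf1 overlap between the groups, and Cwc22 with KCl lies below all controls.

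Immediate early transcription factors were mostly higher with KCl. Of 29 tested, 3 passed (Fos, Nr4a1 and Nr4a2), 22 had a log2 fold change above 0, and the median was 1.07 beside 0.02 over all mRNAs tested, of which 51.1% were above 0. All 3 KCl libraries lay above all 5 controls for 7 of the 29 (24.1%) beside 2.73% of all mRNAs tested. Over 20 other settings the median of the list lay between 0.47 and 1.52. Fosb, which pairs with Jun proteins, just missed with a log2 fold change of 2.32 ± 0.47 (SE) and an adjusted p of 0.0661 in edgeR. Its levels were 50.1, 24.0, 36.0, 31.6 and 39.3 CPM in controls and 181, 65.1 and 294 CPM with KCl, so the groups were separate.

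Npas4, a neuron-specific factor induced by calcium, was at 35.6, 36.6, 35.1, 23.2 and 20.5 CPM in controls and at 101, 54.6 and 165 CPM with KCl. The groups were separate, but with a log2 fold change of 1.83 the adjusted p was 0.323 in edgeR. Nr4a3 (Nor1), on chr4:48045153-48086447, was at 211, 111, 46.7, 68.0 and 73.9 CPM in controls and at 253, 89.9 and 551 CPM with KCl. Its groups overlapped, since C1 and C2 exceeded KCL1a, and it did not pass (log2 fold change 1.56, adjusted p 0.698 in edgeR). Of the 3 Nr4a receptors, Nr4a3 was thus the only member that missed the threshold, which does not show that it differed from the others.

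Jun, Klf6 and Klf4, further factors of the early response, had log2 fold changes of 1.93, 1.92 and 2.12 and adjusted p of 0.575, 0.380 and 0.575 in edgeR. Each of them overlapped between the groups. Egr1, the best known early factor beside Fos and named here for that reason, was at 65.3, 94.0, 72.8, 37.3 and 137 CPM in controls and at 112, 29.0 and 243 CPM with KCl, with overlapping groups and a log2 fold change of 0.66 (adjusted p 0.911 in edgeR) that turned to -0.18 without KCL4. Ier5 went against the list. It was at 90.8, 126, 56.5, 71.5 and 92.5 CPM in controls and at 42.2, 11.9 and 31.3 CPM with KCl, all 3 KCl libraries below all controls, with a log2 fold change of -1.62 and an adjusted p of 0.626 in edgeR.

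The mRNAs of activity-induced effectors and feedback proteins did not share this pattern. Of 43 tested, none passed, 22 had a log2 fold change above 0 and the median was 0.02. The KCl libraries differed here, with medians against the control mean of 0.69 in KCL1, -0.60 in KCL1a and 0.22 in KCL4. Without KCL1a the median was 0.26, and Gadd45g and Sik1 passed. Sik1, a salt-inducible kinase that restrains CREB coactivators, was at 41.6, 19.8, 25.5, 20.2 and 13.4 CPM in controls and at 77.2, 44.1 and 95.7 CPM with KCl, with separate groups and a log2 fold change of 1.61 (adjusted p 0.575 in edgeR). Arc, whose mRNA travels into dendrites and which is named here for that reason, was at 71.3, 130, 80.9, 61.0 and 99.4 CPM in controls and at 40.6, 39.5 and 110 CPM with KCl. Bdnf, the neurotrophin, was at 316, 153, 90.2, 41.2 and 157 CPM in controls and at 192, 6.30 and 143 CPM with KCl. Both overlapped between the groups, with log2 fold changes of -0.47 and -0.41 (adjusted p 0.941 and 0.985 in edgeR), and that of Bdnf turned to 0.20 without KCL1a and to 0.11 without C1. Nptx2, a pentraxin that clusters AMPA receptors, had a log2 fold change of -1.45 (adjusted p 0.820 in edgeR), and Homer1 0.87 (adjusted p 0.869). Whether factors and effectors differed from each other was not tested.

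mRNAs of cytosolic ribosomal proteins were higher with KCl in nearly all members, and none of them passed. Of 48 large subunit proteins tested, 45 had a log2 fold change above 0, with a median of 1.02, and of 33 small subunit proteins 32, with a median of 1.14. All KCl libraries lay above all controls for 16 of 48 (33.3%) and 16 of 33 (48.5%), beside 2.73% of all mRNAs tested. The large subunit mRNAs took 0.403% (KCL1), 0.514% (KCL1a) and 0.378% (KCL4) of the counts with KCl and 0.171% to 0.321% in controls. The small subunit mRNAs took 0.281%, 0.429% and 0.286% with KCl and 0.108% to 0.193% in controls. Neither share overlapped between the groups, and KCL1a, the library that stood apart, had the highest of both. Over 20 other settings the medians lay between 0.69 and 1.24 for the large and between 0.83 and 1.38 for the small subunit.

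**Figure D2:**
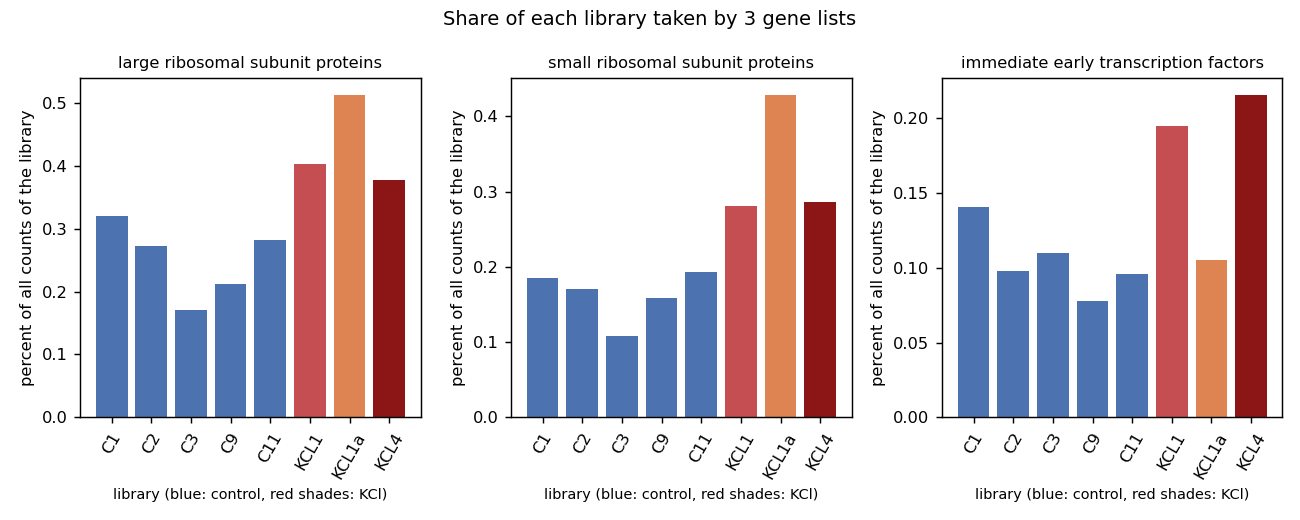
Percent of all counts of each library on mRNAs of large and small ribosomal subunit proteins and on immediate early transcription factors, for 5 control libraries (blue) and 3 KCl libraries (red shades). The ribosomal shares with KCl (0.378% to 0.514% and 0.281% to 0.429%) lie above the controls, while the share of immediate early factors overlaps, with KCL1a at 0.105% and C1 at 0.141%.

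Rpsa, a small subunit protein also known as the laminin receptor, lies on chr9:120127689-120132369. Its levels were 298, 309, 88.4, 321 and 404 CPM in controls and 489, 1240 and 1120 CPM with KCl. The groups did not overlap, although C3 was far below the other controls, and the log2 fold change of 1.74 ± 0.57 (SE) had an adjusted p of 0.648 in edgeR. Rps15a, the ribosomal mRNA of smallest p, was at 36.5, 28.7, 22.9, 18.0 and 36.8 CPM in controls and at 138, 63.3 and 88.6 CPM with KCl. Its log2 fold change was 1.76 ± 0.44 (SE), with an adjusted p of 0.332 in edgeR. Rpl23a was at 34.8, 23.7, 10.4, 6.14 and 25.2 CPM in controls and at 72.3, 71.0 and 77.8 CPM with KCl. Its KCl libraries were close together and all above the controls, with a log2 fold change of 1.89 ± 0.50 (SE) and an adjusted p of 0.406 in edgeR.

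Rpl26 and Rps27l had the lowest fold changes of the lists, and that of Rps27l was -0.89. Rpl26 was at 31.4, 60.6, 14.2, 30.7 and 77.1 CPM in controls and at 20.7, 3.85 and 10.9 CPM with KCl, with a log2 fold change of -1.87 (adjusted p 0.684 in edgeR). Only C3 of the controls lay within the range of the KCl libraries. Ribosomal protein genes have many processed pseudogenes, and how the counting divided shared reads limits the level of single members. At the annotated start, 18 of 72 ribosomal promoter windows (25.0%) began with 4 or more pyrimidines, the run with which mRNAs under growth control of translation typically start, beside 6.86% of all windows.

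Mitochondrial ribosomal proteins are made by nuclear genes for another ribosome. Of 75 tested, of which 59 were in the lower 3 of 5 quintiles by level, 49 had a log2 fold change above 0, the median was 0.17 (-0.26 when scaled by the library total alone), and their share of counts was 0.111% to 0.115% with KCl and 0.119% to 0.156% in controls. Whether they differed from the cytosolic ribosomal proteins was not tested. Of 43 translation factors, none passed, 39 were above 0 and the median was 0.65. Of the 43, 26 were in the highest quintile by level, where 84.5% of mRNAs were above 0 and the median was 0.46. Tpt1, the translationally controlled tumour protein, was at 275, 224, 81.2, 197 and 202 CPM in controls and at 319, 606 and 704 CPM with KCl, with separate groups and a log2 fold change of 1.47 (adjusted p 0.698 in edgeR). Eef1b2 and Eif1ax, an elongation and an initiation factor, had log2 fold changes of 1.29 and 1.30 (adjusted p 0.698 and 0.688 in edgeR).

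Cytoskeletal mRNAs of growing neurites were higher in all 33 tested members of the list of tubulins, actins and growth cone proteins. The median log2 fold change was 1.09, with no call and 9 members with separate groups (27.3%). Of the 33, 30 were in the highest quintile by level, where 84.5% of mRNAs were above 0 and the median was 0.46. In that quintile, all KCl libraries lay above all controls for 217 of 3487 mRNAs. The list took 0.595% to 1.09% of the counts with KCl and 0.359% to 0.721% in controls, so the shares overlapped. Tmsb10, an actin-sequestering thymosin, was at 57.7, 64.5, 23.8, 34.7 and 63.7 CPM in controls and at 168, 160 and 154 CPM with KCl. The KCl libraries nearly coincided, and the log2 fold change was 1.72 ± 0.44 (SE) with an adjusted p of 0.347 in edgeR. Dpysl3 (Crmp4), a collapsin response mediator, was at 113, 93.2, 58.0, 86.0 and 101 CPM in controls and at 357, 140 and 570 CPM with KCl, again without overlap (log2 fold change 1.98, adjusted p 0.323 in edgeR). Tubb5, Marcksl1 and Stmn2, a tubulin, an actin-binding kinase substrate and a microtubule destabiliser, had log2 fold changes of 1.72, 1.85 and 1.67 (adjusted p 0.575, 0.457 and 0.623 in edgeR).

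Macf1, a giant protein that links actin to microtubules, lies on chr4:123349633-123684360. It was at 684, 712, 358, 539 and 1100 CPM in controls and at 1530, 992 and 2030 CPM with KCl, where only C11 reached into the range of the KCl libraries. Its log2 fold change was 1.16 ± 0.61 (SE) with an adjusted p of 0.856 in edgeR. Of 34 giant linkers and microtubule proteins, none passed, 30 were above 0, and the median was 0.86. All 34 belong to the highest of 5 quintiles of mRNAs by level, in which 84.5% were above 0 and the median was 0.46. Kif5a, a kinesin heavy chain of axonal transport, was at 726, 900, 251, 1150 and 1400 CPM in controls and at 1890, 2390 and 3130 CPM with KCl, with separate groups and a log2 fold change of 1.48 (adjusted p 0.851 in edgeR).

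Of 28 mRNAs of sterol synthesis and fatty acid desaturation, none passed, 27 were above 0 and the median was 0.86. Of the 28, 17 were in the highest quintile by level, where 84.5% of mRNAs were above 0 and the median was 0.46. The list took 0.327% to 0.716% of the counts with KCl and 0.263% to 0.405% in controls, so the shares overlapped. Pmvk, phosphomevalonate kinase, was at 37.3, 18.8, 20.3, 7.46 and 25.7 CPM in controls and at 69.8, 103 and 86.5 CPM with KCl, with separate groups and a log2 fold change of 1.99 ± 0.47 (SE, adjusted p 0.275 in edgeR). Cyp51 and Msmo1, enzymes that remove methyl groups from lanosterol, had log2 fold changes of 1.60 and 1.36 (adjusted p 0.623 and 0.688 in edgeR).

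Synaptic and housekeeping mRNAs gave no call. Of 55 presynaptic and 54 postsynaptic mRNAs, 52 and 47 were above 0, with medians of 0.53 and 0.51. Of the 55 and 54 tested, 47 and 49 were in the highest quintile by level, where 84.5% of mRNAs were above 0 and the median was 0.46. The medians of nuclear genes of oxidative phosphorylation (78 tested), chaperones (32), proteasome subunits (31), glycolytic enzymes (16) and channels (30) were 0.44, 0.61, 0.43, 0.28 and 0.29. With the receptor gene share as a covariate, the medians of these 5 lists and of the postsynaptic mRNAs turned to -0.09, -0.10, -0.12, -0.32, -0.19 and -0.11. In the same fit the medians were 0.02 for presynaptic mRNAs, 0.08 for translation factors, 0.23 for sterol synthesis, 0.25 for giant linkers and 0.53 for growth cone and tubulin mRNAs.

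These medians moved with the level of the mRNA. In quintiles of the tested mRNAs by mean level, the median log2 fold change was -0.65 in the lowest, then -0.35, -0.09 and 0.16, and 0.46 in the highest. The KCl libraries differed in this. Against the control mean, the median log2 level went from -0.73 in the lowest to 1.06 in the highest quintile in KCL4, the deepest library. It went from -0.36 to 0.53 in KCL1, while KCL1a was at -0.29 in both. All KCl libraries were above all controls for 7 mRNAs of the lowest quintile and for 217 of the highest. Of the ribosomal members, 28 of 48 and 19 of 33 were in the highest quintile, and 11 of 29 immediate early factors were. By exon length the medians went from -0.15 in the shortest quintile to 0.16 in the longest. Ribosomal protein mRNAs are short (median exon length of 1776 and 1734 bases). Their medians of 1.02 and 1.14 stand beside -0.15 for the shortest quintile and 0.46 for the quintile of highest level. The shortest quintile held mRNAs of low level, with a median of 6.45 CPM in controls. The median level over all 8 libraries was 60.6 and 54.4 CPM for the 2 ribosomal lists. Length and level were thus not separated here.

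**Figure D3:**
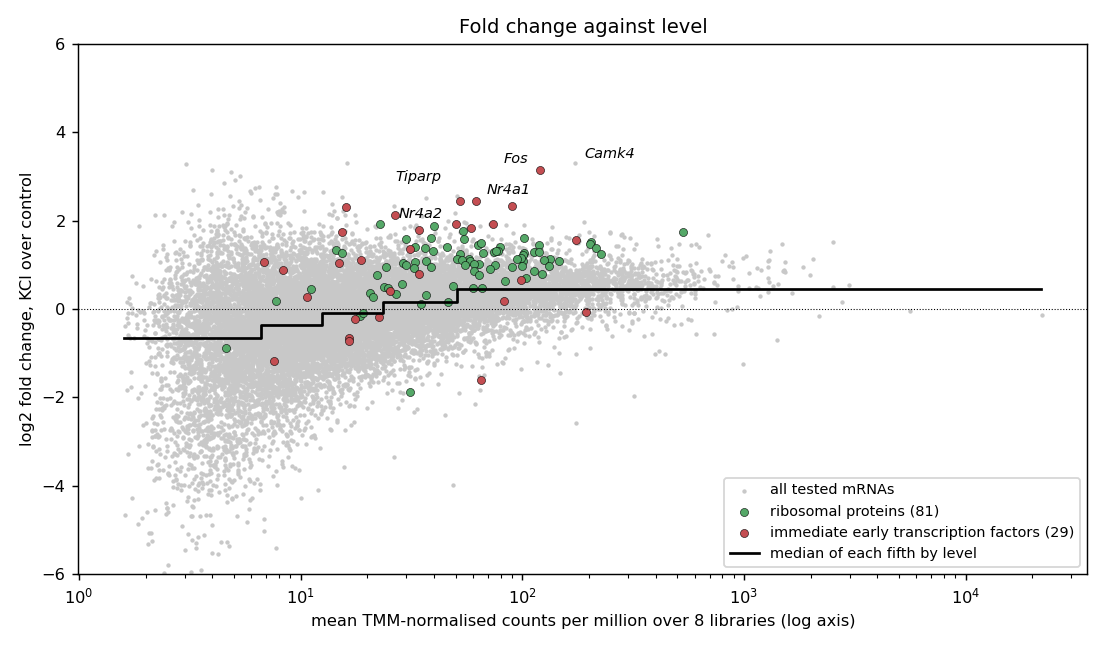
log2 fold change of KCl over control against the mean normalised level over 8 libraries (log axis) for tested mRNAs (grey), ribosomal proteins (green) and immediate early transcription factors (red), with 29 mRNAs outside the plotted range. The black steps are the medians of quintiles by level and go from -0.65 to 0.46, with most ribosomal proteins above them.

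The 3 KCl libraries did not carry these shifts alike. Medians over list members of the log2 level in a library minus the control mean were 0.97, 0.93 and 1.42 in KCL1, KCL1a and KCL4 for large subunit proteins and 1.24, 1.16 and 1.42 for small subunit proteins. For immediate early factors they were 0.90, 0.22 and 1.79, for growth cone and tubulin mRNAs 1.19, 0.39 and 1.74, and for sterol synthesis 1.01, -0.27 and 1.51. KCL1a thus shared the ribosomal values of the other KCl libraries but was near or below the controls for most other lists. For presynaptic mRNAs it was at -0.31, while KCL1 and KCL4 were at 0.75 and 1.22. Single controls also spread widely around the mean of the other controls. Their medians went from -1.115 (C3) to 0.786 (C1) for large and from -0.959 (C3) to 0.567 (C1) for small subunit proteins.

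**Figure D4:**
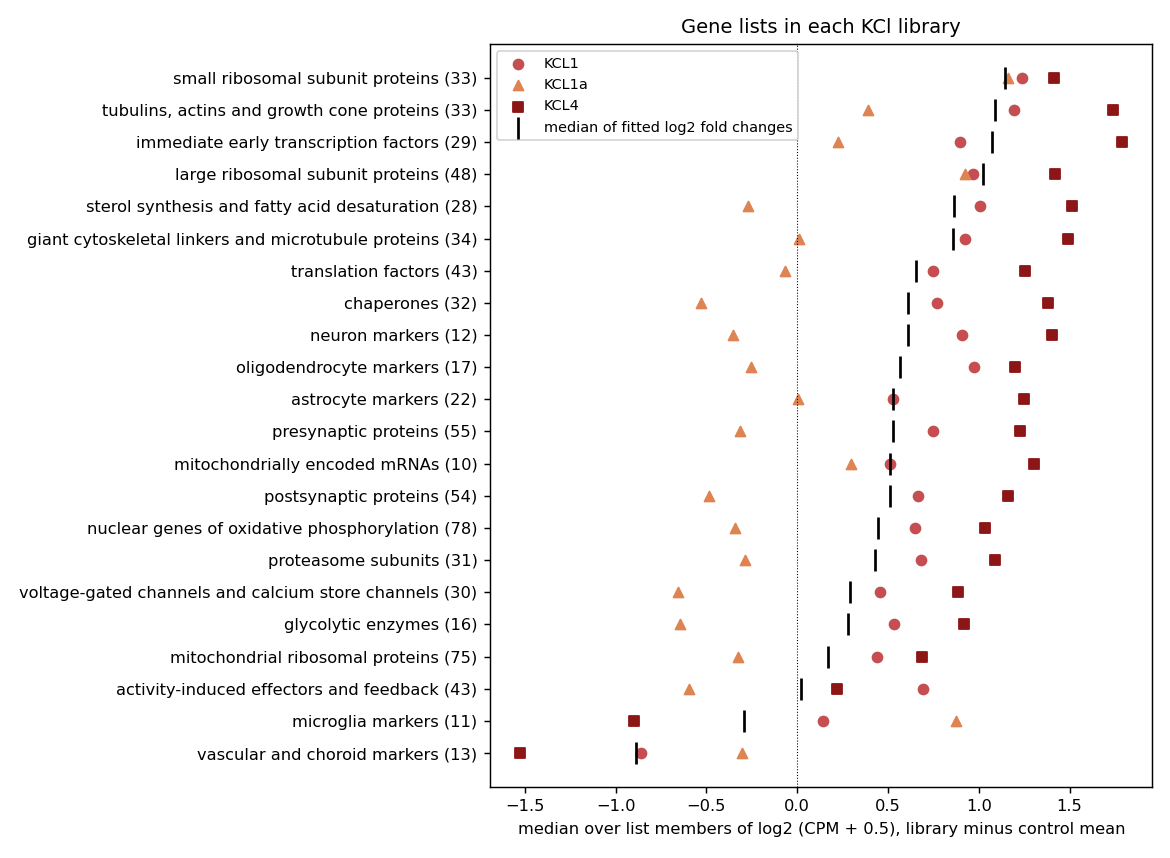
Median over the tested members of 22 gene lists (number in parentheses) of the log2 level in each KCl library minus the mean of the 5 controls, with the median of the fitted log2 fold changes as a black bar. Both ribosomal lists are at 0.93 or higher in all 3 KCl libraries, while KCL1a is below 0 for presynaptic, chaperone and sterol synthesis mRNAs.

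No mRNA passed in the lower direction in edgeR, beside 40 in DESeq2 and 1 in limma voom. Cwc22, a splicing factor that recruits the exon junction complex, came closest. It lies on chr2:77881159-77946375 and was at 199, 272, 213, 222 and 362 CPM in controls and at 47.9, 28.7 and 49.7 CPM with KCl. The groups were far apart, and the log2 fold change was -2.59 ± 0.52 (SE) with an adjusted p of 0.0661 in edgeR, which fell to 0.05 or less under 12 of 20 other settings. Syt10, a synaptotagmin of secretory vesicles, was at 121, 144, 31.6, 42.1 and 93.2 CPM in controls and at 13.0, 25.9 and 19.0 CPM with KCl (log2 fold change -2.16, adjusted p 0.332 in edgeR). Alkal2, a ligand of the kinases Alk and Ltk, was at 204, 89.3, 31.3, 16.7 and 32.7 CPM in controls and at 11.0, 0 and 3.68 CPM with KCl (log2 fold change -3.97, adjusted p 0.127 in edgeR). All 3 KCl libraries were below all controls for 439 mRNAs (2.51%), of which these are among the 12 of smallest p.

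Ddx3y, a helicase gene of the Y chromosome, was also among them. It had 27, 12, 17, 35 and 37 counts in C1, C2, C3, C9 and C11 and 0 in KCL1, KCL1a and KCL4. Against 3 counts over the KCl group, the floor used here, it was at least 207-fold lower, and its adjusted p was 0.195 in edgeR. That bound rests on the depth of KCL4. Against 3 counts over KCL1 and KCL1a alone, a floor chosen after seeing the data, it was at least 19.4-fold lower. Together with Eif2s3y, Uty and Kdm5d, further Y-linked genes that were added after the values were seen, the counts were 46, 12, 61, 88 and 52 in controls and 1, 0 and 13 with KCl, the 14 KCl counts all from Kdm5d. Scaled by the library total, that is 2.97 to 44.3 CPM in controls and 0 to 0.352 CPM with KCl. Xist, the RNA of the inactive X chromosome, was counted in every library. Its raw counts were 488 (C9) to 1737 (C11) in controls, 1157 in KCL1, 887 in KCL1a and 33372 in KCL4. These counts are not scaled for depth, and KCL4 was by far the deepest library, so they do not tell whether the groups differed in Xist. Controls and KCl libraries thus differed in Y-linked RNA as well as in stimulation, and the sex of the cultured embryos and KCl cannot be told apart for the other differences.

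Of 17 markers of the oligodendrocyte lineage 14 were above 0, with a median of 0.57. Mobp, a myelin protein and the lowest of them, was at 14.4, 30.9, 24.1, 20.6 and 26.6 CPM in controls and at 6.50, 2.10 and 2.19 CPM with KCl, with separate groups (log2 fold change -2.74, adjusted p 0.575 in edgeR). Bcas1 and Enpp2, genes of early myelinating and myelinating cells, had log2 fold changes of 1.56 and 1.58 (adjusted p 0.623 and 0.575 in edgeR). Of 13 vascular and choroid markers, 4 were above 0, with a median of -0.89 and a share of 0.00713% to 0.0261% with KCl and 0.0141% to 0.0594% in controls. Flt1, a receptor for vascular growth factor, was at 27.2, 17.8, 66.4, 65.8 and 22.7 CPM in controls and at 15.0, 8.40 and 8.93 CPM with KCl (log2 fold change -1.90, adjusted p 0.626 in edgeR). Of 22 astrocyte markers 19 were above 0, with a median of 0.53. The part of these cells in the results on neuronal lists was not tested.

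With 1 factor of unwanted variation taken from the residuals, in the manner of RUVr, 214 mRNAs were higher (1.23%) and 18 lower, and all 5 called mRNAs were among the former. They included 11 of 48 large and 11 of 33 small subunit proteins, 16 of 33 growth cone and tubulin mRNAs, 8 of 28 of sterol synthesis and 8 of 29 immediate early factors (Fos, Fosb, Jun, Klf6, Npas4, Nr4a1, Nr4a2 and Nr4a3). Of the effectors only Sik1 passed. Rpsa and Macf1 passed in this fit (adjusted p 0.0182 and 0.0325) and under none of the other settings. The factor was estimated from the same 8 libraries and may remove spread between replicates that the simpler model counts as error.

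**Figure D5:**
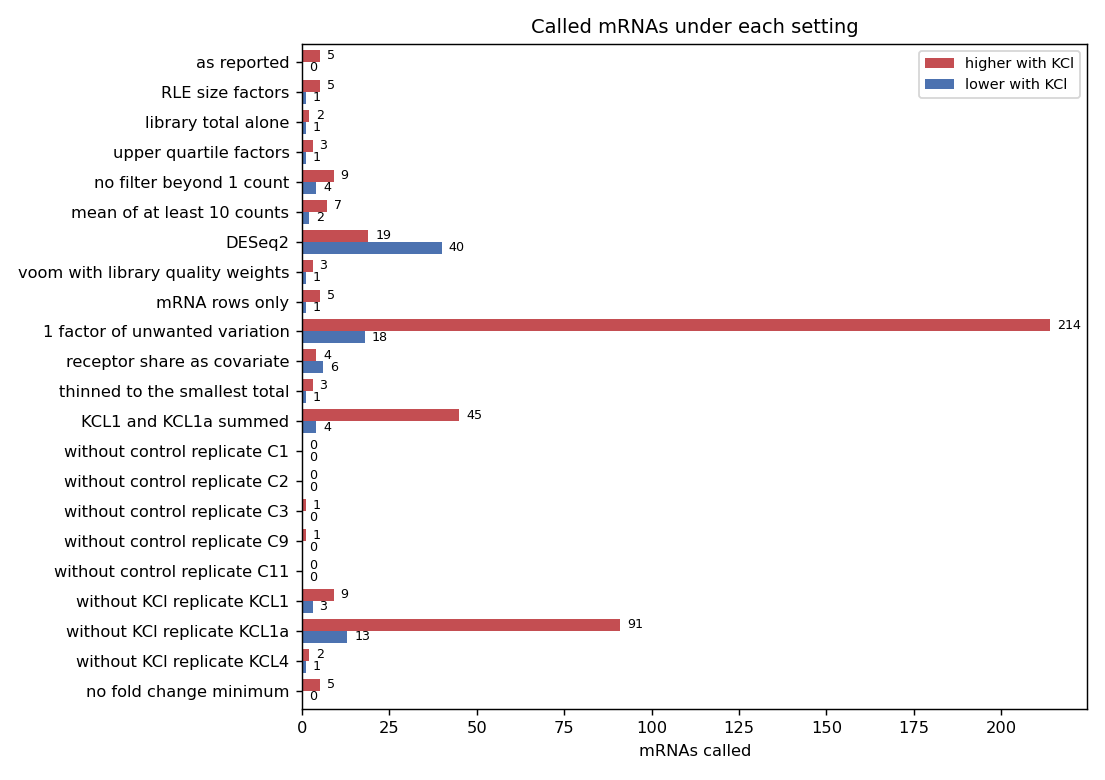
Number of mRNAs called higher (red) and lower (blue) with KCl under each setting, from the reported fit at the top to settings that leave out 1 library. The counts go from 0 without C1, C2 or C11 to 91 higher without KCL1a and 214 higher with a factor of unwanted variation.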

How the data were processed

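Total RNA of neurites from microfluidic chambers was sequenced by the authors. Per the labels and the submitters' processing notes, reads were converted with bcl2fastq 2.20.2, aligned to mm10 with STAR 2.5.2b and counted per gene with featureCounts 1.5.1. The authors deposited raw counts as well as normalized values, and the raw counts were used here. Columns of normalized values and of libraries outside the comparison (14) were not used. Whether counting used strand is not given in the sources used here, so overlapping genes are uncertain.

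Counts of all 48709 rows were fitted with edgeR 4.0.16 in R 4.3.3 (filterByExpr, TMM, quasi-likelihood F test, group as the only term), with Benjamini-Hochberg adjustment over all tested rows, and mRNAs were called where the adjusted p did not exceed 0.05 and the level differed more than 2-fold (log2 fold change beyond 1). The biological coefficient of variation was 0.864. Of the mRNAs, 4559 did not pass the filter, 738 of them without a count. DESeq2 1.42.0, limma 3.58.1 (voom), other scalings, filters, covariates, thinning to 1264311 counts, KCL1 and KCL1a summed, and each library left out were alternatives. The scripts were tested on simulated data. Library values took exact permutation tests (56 divisions). Levels per library and list used log2 (CPM + 0.5). Python 3.11.15 did the rest. Symbols and coordinates came from GENCODE vM21.

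The members and the 23 gene lists were chosen with earlier results of these data known. Named genes were 4 markers, up to 12 called and the 12 of smallest p each way, and up to 4 or 8 members per list by p; Egr1, Arc, Bdnf, Gfap, P2ry12, Ier5, Rps27l and the Y-linked genes beyond Ddx3y were added after their values were seen.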

Additional observations from a re-analysis of the deposited data

Results flagged for a closer look

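Cpne4 was at 27.8 CPM in C3, far above the other controls at 8.16 to 12.7 CPM (Dixon's criterion for 5 samples, which chance meets in about 1 of 20 groups; 48 mRNAs and 10 library values were examined). The KCl libraries lay above this value too.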

How the results depend on the processing

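The count of mRNAs called higher with KCl was 5 in the reported edgeR fit and with size factors by the median of ratios, 7 with a mean of at least 10 counts as filter and 4 with the receptor gene share as a covariate. It was 2 when scaled by the library total alone, which moved the median log2 fold change of all mRNAs from 0.02 to -0.35, 3 with upper quartile factors (median -0.12), 9 without a filter, 19 in DESeq2 (median -0.15), 3 in limma voom, 214 with a factor of unwanted variation, 3 after thinning to the smallest total and 45 with KCL1 and KCL1a summed. In the reported edgeR fit, 395 of 17459 tested mRNAs were lower at an unadjusted p under 0.05, which many mRNAs meet by chance. The count of mRNAs called lower was 0 in that fit. It was 1 with size factors by the median of ratios, with the library total alone, with upper quartile factors, in limma voom, with mRNA rows only and after thinning, in each of these Cwc22. It was 4 without a filter, 2 with a mean of at least 10 counts, 40 in DESeq2, 18 with the factor of unwanted variation, 6 with the receptor share and 4 with KCL1 and KCL1a summed. Leaving out 1 library gave 0 to 91 higher and 0 to 13 lower calls. The highest counts came without KCL1a (91 and 13), and 0 mRNAs passed in either direction without C1, C2 or C11, 1 higher without C3 or C9, 9 higher and 3 lower without KCL1, and 2 higher and 1 lower without KCL4. Of the 5 called mRNAs, all were also called in DESeq2, with the factor and without KCL1a. The cause of these shifts was not tested. The log2 fold change of Bdnf turned to 0.11 without C1 and 0.20 without KCL1a, within a range of -0.94 to 0.20 over libraries left out, and that of Egr1 turned to -0.40 with the receptor share and -0.18 without KCL4, within a range of -0.18 to 1.19. No paired analysis was possible because the columns of the 2 groups share only the number 1. A biological coefficient of variation of 0.864 with 3 against 5 libraries limits which changes can be called.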

Other observations

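Among mRNAs outside the lists, Cpne4, a calcium-binding copine, was at 8.48, 8.16, 27.8, 12.7 and 8.87 CPM in C1, C2, C3, C9 and C11 and at 41.8, 67.2 and 120 CPM in KCL1, KCL1a and KCL4. The groups did not overlap, and the log2 fold change was 2.52 ± 0.51 (SE) with an adjusted p of 0.0665 in edgeR. Pcdh8, an activity-regulated protocadherin also called arcadlin, was at 10.2, 16.3, 8.12, 5.70 and 12.1 CPM in controls and at 34.1, 28.7 and 96.3 CPM with KCl, again without overlap (log2 fold change 2.34 ± 0.55, adjusted p 0.275 in edgeR). Spock3, a testican of the extracellular matrix, was at 20.4, 10.4, 16.2, 20.2 and 12.3 CPM in controls and at 33.7, 49.7 and 119 CPM with KCl (log2 fold change 2.11 ± 0.49, adjusted p 0.275 in edgeR). These 3 are among the 12 mRNAs of smallest p in the higher direction and did not pass.

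Col24a1, a fibrillar collagen, was at 80.6, 91.7, 52.5, 82.0 and 49.1 CPM in controls and at 21.1, 18.9 and 17.2 CPM with KCl. The KCl libraries were close together and below all controls, with a log2 fold change of -1.90 ± 0.47 and an adjusted p of 0.332 in edgeR.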
